A study of Mus musculus with 4 samples.

Results

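The DNA replication machinery was followed here through 52 listed genes that load, activate and run replication forks, supply nucleotides and pack the copied DNA. A gene was taken as measured where a probe set was annotated to it alone, and where several were, the probe set with the highest mean over the 4 arrays stood for it. This gave 51 of the 52 genes, out of 22180 genes measured in all. Rfc4, a subunit of the clamp loader, was the exception, because its probe set is also annotated to the neighbouring translation factor gene Eif4a2. The cells were EO771, a mammary carcinoma line of the C57BL/6 mouse, held for 24 hours to at least 70% confluence before treatment. A group of 2 arrays came from cultures that received recombinant mouse A-FABP (the fatty acid binding protein encoded by Fabp4) at 100 ng/ml, and a group of 2 arrays from control cultures that received PBS. The comparison asks how the replication genes of a tumour line stand when A-FABP, a lipid chaperone, is added from outside. The labels used here give no time of exposure. Their description field names A-FABP for the controls too, whose titles and source names mark them as controls.

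Replication is prepared in G1, when the origin recognition complex (ORC), CDC6 and CDT1 load the MCM2 to MCM7 helicase onto origins. This step is called licensing. In S phase the CDC7-DBF4 kinase helps to recruit CDC45 and the GINS complex, which turn the loaded MCM ring into an active helicase. There, polymerase alpha with primase lays down primers, and polymerases delta and epsilon extend them with the sliding clamp PCNA. Many of these genes are E2F targets and are expressed mainly around the G1/S transition, so their summed RNA is widely read as a measure of proliferation.

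The measured values are log2 expression levels, so a difference of 1 is a doubling. Array medians over 41345 probe sets were 5.98 and 5.95 on the A-FABP arrays and 6.03 on both PBS arrays. The Pearson correlation of replicate arrays over these probe sets was 0.9906 for A-FABP and 0.9914 for PBS. Of 6 epithelial markers, Krt8 was clearly above the array medians, at a mean level of 8.79, while the other 5, Epcam and Cdh1 included, had mean levels of 4.79 to 6.29, near or below those medians. Of the markers of other cell types, the macrophage marker Cd68 (12.79) and the mesenchymal receptor genes Pdgfra (11.20) and Pdgfrb (9.81) were bright, and the endothelial and adipocyte lists did not exceed 6.70. The 6 leukocyte markers summed to 38.08 to 38.83 log2 units with A-FABP and to 39.79 to 39.82 with PBS, and 2 of them (Ptprc and Itgam, both below the array medians) were lower at an unadjusted p under 0.05, as were 1 of 6 fibroblast and 1 of 4 endothelial markers, where 8.24% of all genes were lower. None of these markers was higher at that threshold, with Csf1r at a difference of 0.16, Col1a1 at 0.20 and Dcn at 0.23. The part of such markers in the values below was not tested.

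Many promoters of replication genes carry recognisable E2F-type sites. Stretches from 120 bases before to 30 bases after the annotated start are shown as examples from 6 genes. Tyms, Rpa3 and Pole2 had the highest differences of their role groups, and Gins3 had the lowest difference of the firing genes. Orc3 and Mcm6 are licensing genes with an E2F-type match. The 6 are not representative, as 31.8% of listed genes with a promoter window held either E2F-type motif. Sequences are from RefSeq, build GRCm38.p6, and read 5′ to 3′ along the gene. Capitals mark the letters TTTCCCGC or TTTGGCGC, or their reverse complement.
Tyms (chr5:30073596-30073745, minus strand): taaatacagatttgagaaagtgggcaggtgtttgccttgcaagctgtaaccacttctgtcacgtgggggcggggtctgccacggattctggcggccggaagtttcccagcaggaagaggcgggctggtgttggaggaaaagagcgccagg
Rpa3 (chr6:8259112-8259261, minus strand): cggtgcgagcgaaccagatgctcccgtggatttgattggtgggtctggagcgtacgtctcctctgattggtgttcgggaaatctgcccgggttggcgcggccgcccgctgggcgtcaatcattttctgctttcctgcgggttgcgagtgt
Pole2 (chr12:69228161-69228310, minus strand): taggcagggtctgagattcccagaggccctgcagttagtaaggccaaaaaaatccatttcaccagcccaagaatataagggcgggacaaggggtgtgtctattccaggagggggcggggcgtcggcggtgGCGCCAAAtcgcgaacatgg
Orc3 (chr4:34614913-34615062, minus strand): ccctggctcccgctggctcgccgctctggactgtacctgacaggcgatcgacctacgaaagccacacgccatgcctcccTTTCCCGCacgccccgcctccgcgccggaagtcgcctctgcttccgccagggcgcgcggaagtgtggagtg
Mcm6 (chr1:128359676-128359825, minus strand): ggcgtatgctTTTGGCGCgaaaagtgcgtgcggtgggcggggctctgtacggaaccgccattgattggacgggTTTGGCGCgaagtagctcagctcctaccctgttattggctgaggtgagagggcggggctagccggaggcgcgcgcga
Gins3 (chr8:95633439-95633588, plus strand): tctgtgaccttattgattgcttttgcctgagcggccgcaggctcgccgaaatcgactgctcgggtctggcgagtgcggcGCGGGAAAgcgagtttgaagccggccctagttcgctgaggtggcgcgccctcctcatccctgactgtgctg
The Mcm6 stretch holds TTTGGCGC at 2 places, with first bases at positions -110 and -47 relative to the start, whereas those of Tyms and Rpa3 hold neither motif.

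Of the 44 genes of the list with a RefSeq promoter window (250 bases before to 50 after the start, 54 windows), 8 held TTTCCCGC on either strand, a share of 18.2%, against 1.24% of all 27025 genes with such a window. TTTGGCGC was found in 7, a share of 15.9%, against 0.585%. The shorter CCAAT box, with the letters CCAAT, was found in 27 (61.4%, against 41.1%). No match of these motifs overlapped a match of another in the replication gene windows. Base composition also differed, with a median GC content of 62.3% in the replication gene windows and 52.7% in all windows. The A-FABP minus PBS differences of genes with and without an E2F-type match lay close together. The median was 0.09 on the log2 scale in the 14 genes with either E2F-type motif (range -0.07 to 0.21, 12 above 0) and 0.09 in the 29 measured genes whose windows held neither (25 above 0).

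The replication genes differed little between A-FABP and PBS, and those at the largest distance from 0 were Tyms and Rpa3, both higher with A-FABP. For Rpa3 this depends on the probe set, as a second one lay at -0.10. Of the 51 genes, 0 passed the limma adjusted p of 0.05, as did 0% of all 41345 probe sets, of which 6258 had an unadjusted p under 0.05. At an unadjusted p under 0.05, 2 replication genes were higher and 0 lower, where 4.81% of all genes were higher and 8.24% lower, so the count of 2 of 51 lies near the background. The count was 1 (Tyms) without A-FABP replicate 2 and 0 without any other single array, and 9 after each array was centred on its median, when 10% of all probe sets were higher, against 6.69% as deposited. None of the 51 genes differed by more than 1.5-fold. Differences of that size were rare, found in 295 of 22180 genes and in 24 of the 9233 within the same range of mean level. Of the 51 genes, 49 had a 95% confidence interval that lay wholly within 1.5-fold in either direction. The same held for 72% of all genes and 89.3% of those 9233. The exceptions were Tyms and Orc1. In bulk RNA, more cells of a kind (such as cells in S phase) and more RNA per cell cannot be told apart.

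**Figure D1:**
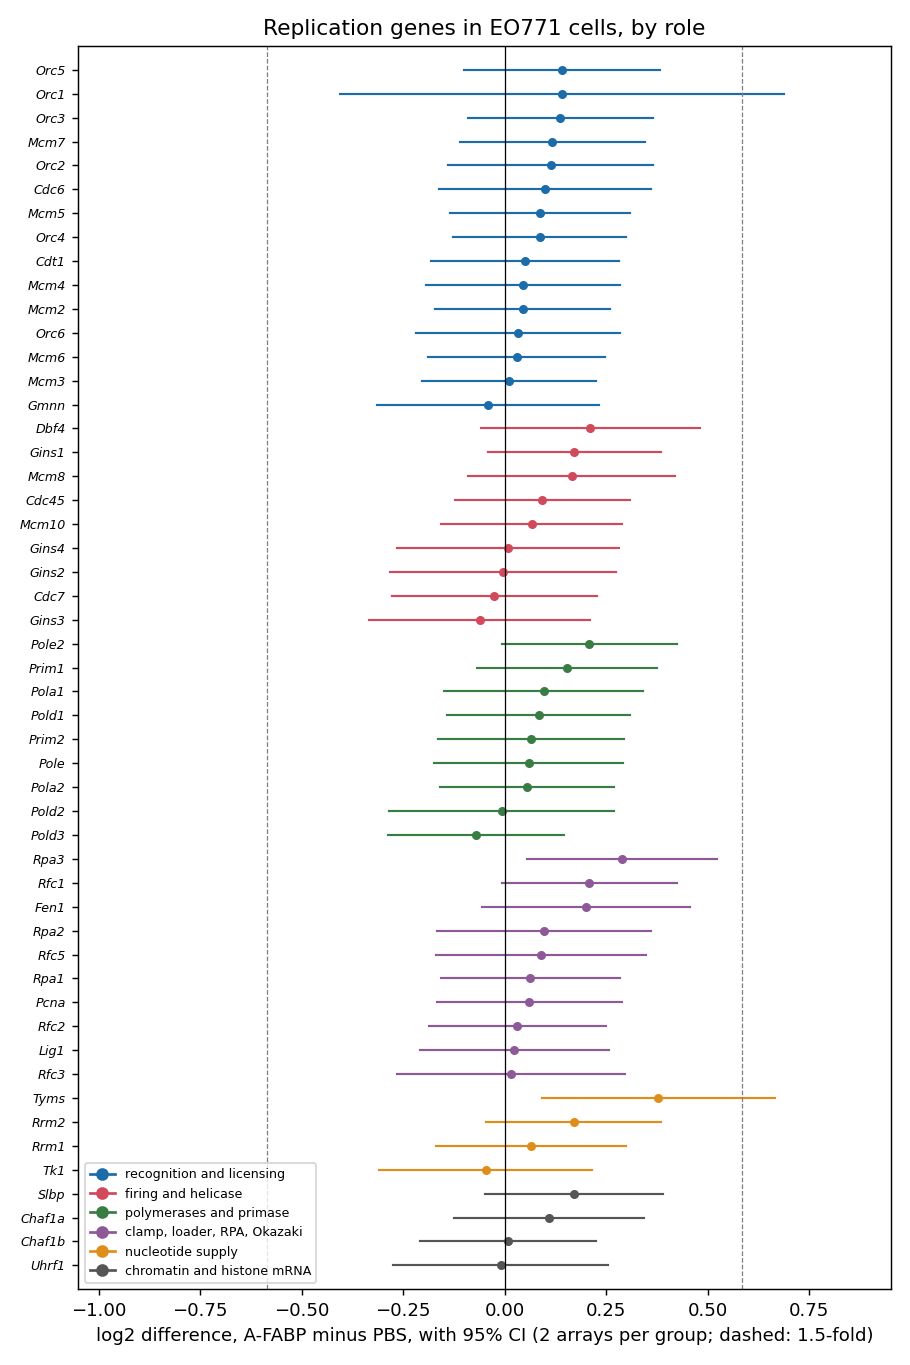
Log2 difference between A-FABP and PBS (x axis) for the 51 replication genes, grouped by role and ordered by difference. Points are limma estimates from 2 arrays per group, bars are 95% confidence intervals, and dashed lines mark 1.5-fold; the intervals of Tyms and Rpa3 lie above 0, and those of Tyms and Orc1 cross the upper dashed line.

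Most of the small differences had the same sign. As deposited, 43 of the 51 lay above 0 and 8 below, with a median of 0.07 (quartiles 0.03 and 0.14), beside 47.6% of all genes above 0 and a median of -0.01. The medians of the 51 genes were 9.25 and 9.29 on the A-FABP arrays and 9.20 and 9.14 on the PBS arrays, so both A-FABP arrays lay higher, by little. In 32 genes each A-FABP array was higher than each PBS array, in 1 lower (Pold3), and in 18 the groups overlapped, where 26% of all genes had higher and 27.5% lower A-FABP arrays. Between single arrays, the differences of the 51 genes had an SD of 0.0891 for the A-FABP pair, 0.0950 for the PBS pair and 0.0901 to 0.121 for the 4 pairs across groups. The balance of signs depended on the scaling. It was 50 above and 1 below after each array was centred on its median. The counts were 32 and 19 after cyclic loess and 31 and 20 after repeated quantile normalization. They were also 31 and 20 once the trend of the difference with mean level was taken out. The median difference of all probe sets moved too, from -0.0084 as deposited to 0.0567 after median centring. It was 0.0044, -0.0167 and 0.0058 under the other alternatives, in that order.

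**Figure D2:**
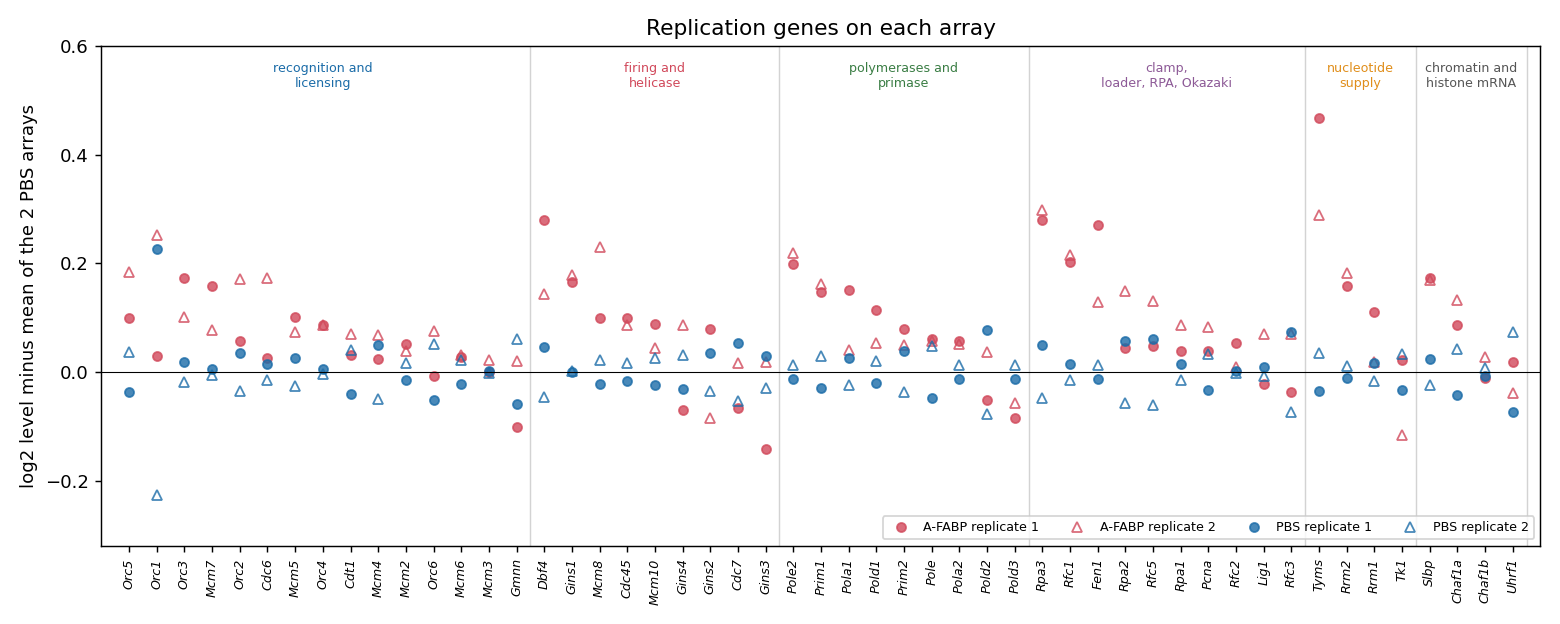
Log2 level of each replication gene on each of the 4 arrays, minus the mean of its 2 PBS arrays (y axis), with genes ordered by role and difference (x axis). Red marks A-FABP and blue PBS, circles replicate 1 and triangles replicate 2; the A-FABP arrays lie above the PBS arrays in 32 of 51 genes, and the PBS arrays of Orc1 lie furthest apart.

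Genes as bright as the replication genes also leaned above 0, though with a smaller share. Of the 51 genes, 43 (84.3%) lay above 0 and 32 had each A-FABP array above each PBS array. The 51 genes had mean levels of 6.62 to 10.95, and among all 9233 genes in that range the median difference was 0.06, with 70.6% above 0, 46.1% with each A-FABP array above each PBS array and 7.62% higher at an unadjusted p under 0.05. By unit of mean level, the 8 replication genes between 7 and 8 had a median of 0.13, against 0.09 for all 2194 genes there. The 13 between 8 and 9 had a median of 0.08 against 0.09 for 2435 genes, the 21 between 9 and 10 one of 0.06 against 0.06 for 2262, and the 8 between 10 and 11 one of 0.05 against 0.04 for 1406. In all, 28 of the 51 lay above the median of all genes of their level, and 33 lay between its quartiles. The SD across the 51 differences was 0.09, beside 0.16 across all genes in the same range. Those genes had a lower median level (8.60 against 9.22), so these spreads and the shares over that range are not matched for level. The range takes in genes below 7, and between 6 and 7 all genes had a median of -0.10, beside 1 replication gene.

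**Figure D3:**
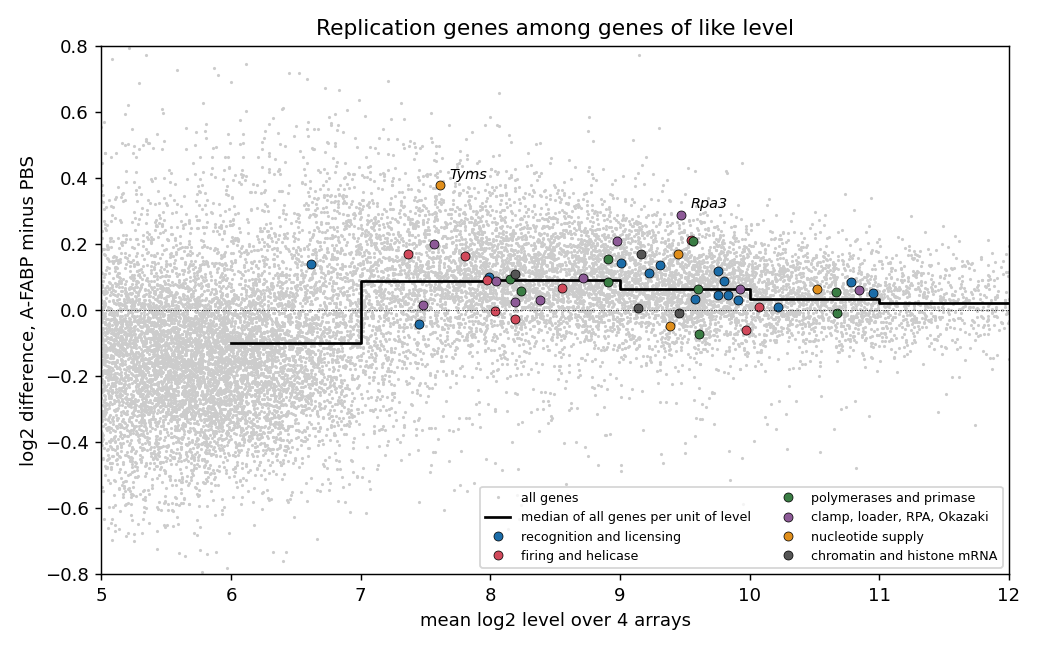
Log2 difference between A-FABP and PBS (y axis) against the mean log2 level over the 4 arrays (x axis) for all genes (grey) and for the replication genes, coloured by role. The black line is the median of all genes in each unit of level, -0.10 between 6 and 7 and 0.09 between 7 and 8; the replication genes scatter on both sides of it, with Tyms and Rpa3 on the upper side. Genes beyond the limits of the axes are not drawn.

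The 15 origin recognition and licensing genes had a median difference of 0.09, with 14 above 0, and 0 had an unadjusted p under 0.05. Of the 6 ORC subunit genes, 5 lay between 0.09 and 0.14. Orc6 lay at 0.03, and at -0.02, -0.01 and -0.03 after cyclic loess, after repeated quantile normalization and with the trend on level taken out. Orc5 was measured at 9.03 and 9.12 with A-FABP, against 8.90 and 8.97 with PBS, a difference of 0.14 ± 0.09 (SE, 2 arrays per group). Its arrays did not overlap between groups, and neither did those of Orc2, Orc3 and Orc4. Of all genes within the list's range of mean level, 46.1% likewise had each A-FABP array above each PBS array. Orc1, the cell cycle regulated subunit that helps recruit CDC6, was the least precise gene of the list, at 6.57 and 6.80 with A-FABP, against 6.77 and 6.32 with PBS. Its difference was 0.14 ± 0.20 (95% CI -0.41 to 0.69), the groups overlapped, and without PBS replicate 2 it was -0.085.

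Genes of the MCM2 to MCM7 ring lay between 0.01 and 0.12 as deposited, but Mcm2, Mcm3, Mcm4 and Mcm6 lay on the other side of 0 after cyclic loess, after repeated quantile normalization and with the level trend taken out. Mcm7 was measured at 9.85 and 9.77 with A-FABP, against 9.70 and 9.69 with PBS (0.12 ± 0.08 SE). Mcm3 was the flattest, at 10.21 and 10.23 against 10.22 and 10.21 (0.01 ± 0.08 SE, 95% CI -0.20 to 0.22). The A-FABP arrays lay above the controls for Mcm2, Mcm5, Mcm6 and Mcm7, as in 46.1% of all genes within the list's range of level. They overlapped the controls for Mcm3 and Mcm4. Among the loading factors, Cdc6, the ATPase that joins ORC at the origin, lay at 0.10 ± 0.09 and Cdt1, which brings the MCM ring, at 0.05 ± 0.08. Gmnn, which encodes the CDT1 inhibitor geminin, was the only licensing gene below 0 as deposited. It was measured at 7.37 and 7.49 with A-FABP, against 7.41 and 7.53 with PBS (-0.04 ± 0.10 SE), with overlapping groups, and lay at 0.02 after median centring.

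The 9 genes of origin firing and helicase activation had a median of 0.07, with 6 above 0 and 0 at an unadjusted p under 0.05, and this median was -0.02 after repeated quantile normalization and -0.01 with the level trend taken out. The kinase subunit genes had values of opposite sign as deposited. Dbf4, the regulatory subunit, was measured at 9.72 and 9.59 with A-FABP, against 9.49 and 9.40 with PBS (0.21 ± 0.10 SE, 95% CI -0.06 to 0.48, limma adjusted p = 0.388), without overlap between the groups. Cdc7, the catalytic subunit, was measured at 8.14 and 8.22 against 8.26 and 8.15 (-0.03 ± 0.09 SE), with overlapping groups, and lay at 0.040 after median centring. Whether the difference of Dbf4 differs from that of Cdc7 was not tested.

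The GINS subunit genes spread around 0. Gins1 had the most repeatable values of them, at 7.45 and 7.46 with A-FABP, against 7.28 and 7.28 with PBS (0.17 ± 0.08 SE, limma adjusted p = 0.382). Gins3 had the lowest difference of the firing genes, at 9.86 and 10.02 against 10.03 and 9.97 (-0.06 ± 0.10 SE). Gins2 and Gins4 lay within 0.01 of 0, and in Gins2, Gins3 and Gins4 the groups overlapped. Cdc45, the helicase cofactor, lay at 0.09 ± 0.08 and Mcm10, an initiation factor that acts with the helicase, at 0.07 ± 0.08. Mcm8, a relative of the MCM ring genes with a role in recombination, lay at 0.16 ± 0.09.

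The 9 polymerase and primase genes had a median of 0.06, with 7 above 0 and 0 at an unadjusted p under 0.05. Pole2, the second subunit of the leading strand polymerase epsilon, had tight replicates, at 9.66 and 9.68 with A-FABP, against 9.45 and 9.47 with PBS. Its difference was 0.21 ± 0.08 (SE), a fold of 1.16, with an unadjusted p of 0.0547 and a limma adjusted p = 0.336. Pole, which encodes the catalytic subunit, was measured at 8.26 and 8.26 against 8.16 and 8.25 (0.06 ± 0.08 SE). A further Pole probe set, dim at 5.06 and 5.21 with A-FABP, against 5.38 and 5.36 with PBS, pointed the other way (-0.23 ± 0.09 SE), so the sign for Pole depends on the probe set. The trend of the difference with level was itself -0.12 at a mean level of 5.20.

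All 4 genes of the priming complex lay above 0, as deposited and under each scaling alternative. Prim2 came near 0, at 0.0065 after cyclic loess and 0.0054 with the level trend taken out. As deposited, each A-FABP array of these genes lay above each PBS array. That held for 46.1% of all genes within the list's range of mean level. Prim1, the catalytic primase subunit, lay at 0.15 ± 0.08, Pola1, the catalytic subunit of polymerase alpha, at 0.10 ± 0.09, Prim2 at 0.06 ± 0.08 and Pola2 at 0.05 ± 0.08. For polymerase delta, which copies the lagging strand, the catalytic gene Pold1 lay at 0.08 ± 0.08 and Pold2 at -0.01 ± 0.10. Pold3 had the lowest difference of all 51 genes, at 9.56 and 9.59 with A-FABP, against 9.63 and 9.66 with PBS (-0.07 ± 0.08 SE, 95% CI -0.29 to 0.15). It was also the only gene of the list in which the A-FABP arrays were the lower ones.

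The 10 clamp, clamp loader, single-strand binding and Okazaki fragment genes had a median of 0.08, 1 of them (Rpa3) had an unadjusted p under 0.05 and all lay above 0 as deposited, although Rfc2, Rfc3 and Lig1 turned below 0 after cyclic loess, repeated quantile normalization and with the level trend taken out. Rpa3, the smallest subunit of the single-strand binding protein RPA, was measured at 9.61 and 9.63 with A-FABP, against 9.38 and 9.28 with PBS. Its difference was 0.29 ± 0.08 (SE, 95% CI 0.05 to 0.52), a fold of 1.22, with an unadjusted p of 0.0271 and a limma adjusted p = 0.302. The other Rpa3 probe set was also bright and did not share this difference. It was measured at 8.51 and 8.51 with A-FABP, against 8.53 and 8.70 with PBS (-0.10 ± 0.10 SE, unadjusted p of 0.350), and its PBS arrays were the higher ones. The mean of both probe sets lay at 0.09, and the value for Rpa3 therefore rests on the choice of the brighter probe set. The partner genes Rpa1 (0.06 ± 0.08) and Rpa2 (0.10 ± 0.09) lay close to the rest of the list.

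Pcna, the sliding clamp, was measured at 10.85 and 10.90 with A-FABP, against 10.78 and 10.85 with PBS (0.06 ± 0.08 SE). The A-FABP arrays lay above the controls, but by less than 0.01 at the nearest pair. Rfc1, the large subunit of the clamp loader, was measured at 9.07 and 9.09 against 8.89 and 8.86 (0.21 ± 0.08 SE, unadjusted p of 0.0551, limma adjusted p = 0.337). The small loader subunit genes Rfc2, Rfc3 and Rfc5 lay at 0.03, 0.02 and 0.09. Rfc3 had the lowest difference of this role group, at 7.44 and 7.54 with A-FABP, against 7.55 and 7.40 with PBS, with overlapping groups. The probe set that Rfc4 shares with Eif4a2 was measured at 8.92 and 9.09 against 8.84 and 8.50 (0.34 ± 0.15 SE), and the share of either gene in it is unknown. Of the genes that finish Okazaki fragments, the flap nuclease gene Fen1 lay at 0.20 ± 0.09 and the ligase gene Lig1 at 0.02 ± 0.08.

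The 4 nucleotide supply genes had a median of 0.12, and 1 of them (Tyms) had an unadjusted p under 0.05. This was the highest median of the role groups over the 4 arrays, but the clamp and fork genes had the higher one without A-FABP replicate 1 (0.108 against 0.100) and without PBS replicate 1 (0.1203 against 0.1198). Tyms encodes thymidylate synthase, which makes dTMP from dUMP. It was measured at 7.89 and 7.71 with A-FABP, against 7.39 and 7.46 with PBS, so the groups did not overlap. The difference was 0.38 ± 0.10 (SE, 95% CI 0.09 to 0.66), a fold of 1.30, with an unadjusted p of 0.0217 and a limma adjusted p = 0.296. It ranged from 0.29 to 0.47 when any 1 array was left out, though this cannot turn the sign where groups do not overlap. Under the scaling alternatives the difference lay between 0.32 and 0.44. Tyms had the highest difference of the list over the 4 arrays, but Rpa3 exceeded it without A-FABP replicate 1 (0.298 against 0.289), and Orc1 without PBS replicate 1 (0.367 against 0.344). A dim probe set shared by Tyms and the pseudogene Tyms-ps had overlapping groups, at 5.55 and 5.44 against 5.36 and 5.95.

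The other nucleotide genes had smaller differences. Rrm2, the small subunit of ribonucleotide reductase whose level follows S phase, was measured at 9.52 and 9.54 with A-FABP, against 9.35 and 9.37 with PBS (0.17 ± 0.08 SE, limma adjusted p = 0.387). Rrm1, the large subunit, lay at 0.06 ± 0.08. Tk1, the thymidine kinase of the salvage route, was measured at 9.43 and 9.29 against 9.37 and 9.44 (-0.05 ± 0.09 SE), with overlapping groups. The genes of de novo and salvage supply of dTMP had values of opposite sign as deposited, though Tk1 lay at 0.018 after median centring, and the difference between Tyms and Tk1 was not tested.

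The 4 genes that couple replication to chromatin had a median of 0.06, with 0 at an unadjusted p under 0.05. This median was -0.0045 after cyclic loess, -0.01 after repeated quantile normalization and -0.01 with the level trend taken out. Slbp, which binds the stem-loop of replication-dependent histone mRNAs, was measured at 9.25 and 9.24 with A-FABP, against 9.10 and 9.05 with PBS (0.17 ± 0.08 SE, limma adjusted p = 0.389). Uhrf1, which helps copy DNA methylation to the new strand, was measured at 9.48 and 9.42 against 9.39 and 9.54 (-0.01 ± 0.09 SE). The groups overlapped in Uhrf1 and not in Slbp. The histone chaperone genes Chaf1a and Chaf1b lay at 0.11 ± 0.08 and 0.01 ± 0.08.

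Mcm7 hosts microRNA genes in an intron, and the array has probe sets annotated to both. The probe set shared with Mir25 was measured at 6.78 and 6.89 with A-FABP, against 6.97 and 7.15 with PBS (-0.23 ± 0.11 SE), and that shared with Mir93 at 4.76 and 4.99 against 5.37 and 5.29 (-0.46 ± 0.12 SE, unadjusted p of 0.0170, limma adjusted p = 0.296). In both, the PBS arrays were the higher ones, opposite to the Mcm7 probe set proper, which is brighter. Between 6 and 7, the level of the Mir25 probe set, all genes had a median of -0.10, with 31.6% above 0. The level trend was -0.12 at a mean level of 5.20, near the Mir93 probe set. The part of level in the opposite sign was not tested. For Fen1, Rpa1 and Rrm2 the dimmer second probe sets had the sign of the brighter ones, at 0.08, 0.09 and 0.26, with overlapping groups in each.

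A wider list of 42 other replication genes, of which 38 were measured, had a median of 0.08, with 31 above 0 and 7 below, and at an unadjusted p under 0.05 there were 3 higher and 0 lower (4.81% and 8.24% of all genes). These were Tipin, of the fork protection complex (0.28 ± 0.10 SE), Atad5, which unloads PCNA (0.25 ± 0.08), and Cmpk1, a nucleotide kinase (0.22 ± 0.08). Atad5 was measured at 7.56 and 7.58 with A-FABP, against 7.31 and 7.32 with PBS, Tipin at 8.68 and 8.50 against 8.32 and 8.30, and Cmpk1 at 8.58 and 8.57 against 8.38 and 8.34. The next by unadjusted p were the origin timing factor gene Rif1 (0.20 ± 0.08), the histone chaperone gene Nasp (0.21 ± 0.10) and the nuclease and helicase gene Dna2 (0.16 ± 0.08). The limma adjusted p of these 6 genes lay between 0.304 and 0.397. With any 1 of the 4 arrays left out, the count of 3 became 0 or 1. The 38 differences ran from -0.10 for Pole3, a histone-fold subunit of polymerase epsilon, to 0.39 for Mcm9, a relative of Mcm8, whose 95% CI was -0.13 to 0.91.

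**Figure D4:**
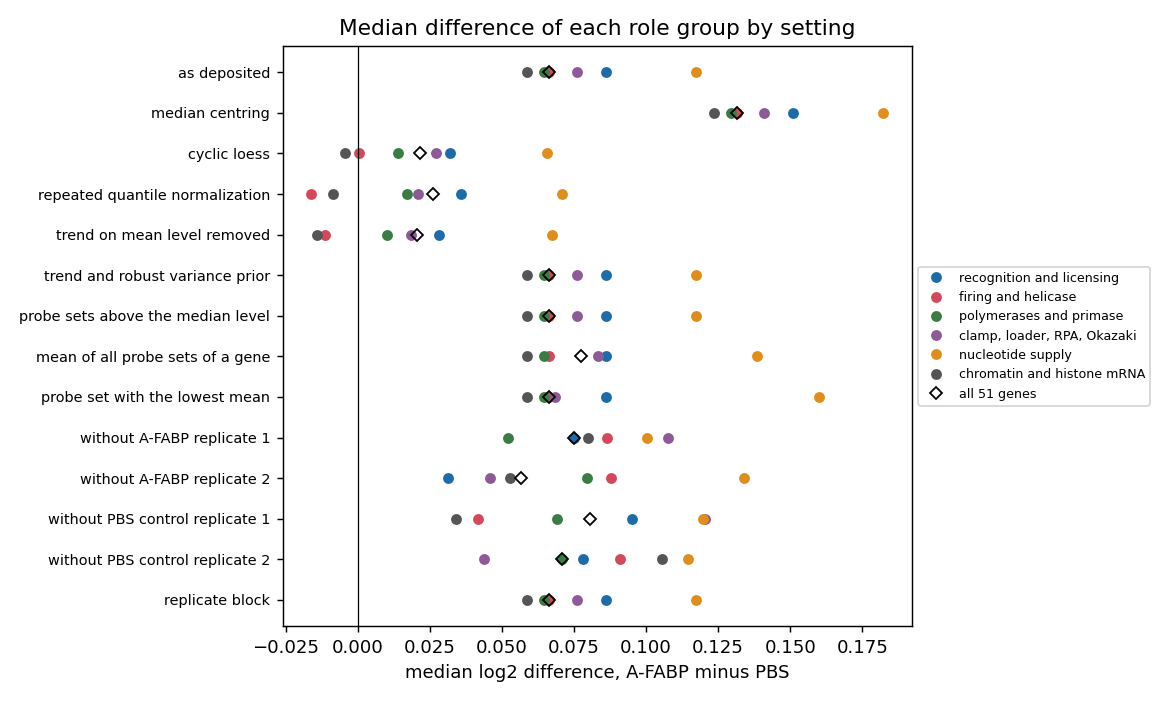
Median log2 difference between A-FABP and PBS (x axis) of each role group (coloured points) and of all 51 genes (open diamonds) as deposited and under each alternative (y axis). Medians of the 51 genes stay above 0 throughout, near 0.02 to 0.03 after cyclic loess, quantile normalization and removal of the level trend, and near 0.13 after median centring.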

How the data were processed

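Total RNA was biotin labelled and hybridised to 4 single-colour arrays, 2 per group, with groups taken from the titles. The deposited table holds log2 expression values per probe set, made by the authors with RMA and Partek 6.6, per the submitters' processing notes. Differences near background and saturation can be compressed in such array values. Background flags were not used, so detection was not called. The number of arrays limits the precision. The titles call the arrays biological replicates, but nothing says that they came from separate cultures, so p-values measure only the spread between these arrays, which may be technical.

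By the platform annotation, 23521 of 41345 probe sets carried 1 gene symbol, 1814 several and 16010 none. Differences (A-FABP minus PBS) were fitted with limma 3.58.1 in R 4.3.3 over all probe sets (lmFit and eBayes, 2 residual and 1.91 prior degrees of freedom, two-sided, Benjamini-Hochberg adjustment) and called at an adjusted p under 0.05. The same fit gave the SE and 95% intervals. An exact permutation test of 2 against 2 arrays cannot give a two-sided p below 0.33.

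The members and lists were chosen with earlier results of these data known. All members were named by role. Array values were given for those with an unadjusted p under 0.05, the highest and lowest of each role group and those whose probe sets differ in sign, and for some others chosen after their values were seen. Of the other replication genes, the 6 with the lowest p were named by rule, and the ends of the range beside it. Of those 42 genes, 4 had no probe set of their own. Promoter windows are from RefSeq, build GRCm38.p6, and 8 listed genes had none. The level trend was a lowess curve with a span of 0.2.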

Additional observations from a re-analysis of the deposited data

How the results depend on the processing

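No probe set passed the adjusted threshold under any alternative, and the lowest limma adjusted p among the 51 replication genes ranged from 0.166 to 0.579. The count of replication genes higher at an unadjusted p under 0.05, 2 as deposited, was 9 after median centring, 8 with the trend and robust variance prior, 7 with only probe sets above the median level, 3 with the mean of all probe sets of a gene or the probe set of lowest mean, 1 after cyclic loess, 1 with the level trend removed, and 0 to 1 with an array left out. With the probe set of lowest mean, 1 was lower (Pole), and 0 were lower with any array left out. For the other replication genes the count of 3 became 1 after cyclic loess, 0 after repeated quantile normalization, 0 with the level trend removed, 5 under the trend and robust prior, the filter, the gene mean and the lowest probe set alike, and 0 to 1 with an array left out. The share of all features that were higher at this threshold moved too. It was 6.69% as deposited, 10% after median centring, 7.13% after cyclic loess, 6.05% after repeated quantile normalization, 7.18% with the level trend removed, 9.33% with the trend and robust prior, 11.8% with the filter, 6.97% with the gene mean, 6.82% with the lowest probe set and 4.36% to 5.78% with an array left out.

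After median centring, cyclic loess, repeated quantile normalization and removal of the trend on level, in that order, the median of the 51 genes was 0.13, 0.021, 0.026 and 0.021. It was 0.15, 0.032, 0.036 and 0.028 for licensing, 0.13, 0.00030, -0.016 and -0.011 for firing, 0.13, 0.014, 0.017 and 0.010 for polymerases, 0.14, 0.027, 0.021 and 0.018 for clamp and fork genes, 0.18, 0.066, 0.071 and 0.067 for nucleotide supply (0.16 with the lowest probe set) and 0.12, -0.0045, -0.0087 and -0.014 for chromatin genes. With an array left out, the medians ranged from 0.057 to 0.081 for all 51, 0.031 to 0.095 for licensing, 0.042 to 0.091 for firing, 0.052 to 0.079 for polymerases, 0.044 to 0.12 for clamp and fork genes, 0.10 to 0.13 for nucleotide supply and 0.034 to 0.11 for chromatin genes.

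Of 663 recomputed gene values, 68 turned sign, in 21 genes, and 30 genes kept their sign throughout. Many of the 663 could not turn, because the variance prior, the filter and the replicate block leave the difference unchanged. The gene mean and the lowest probe set change it only in the 5 genes with several probe sets. Leaving out an array cannot turn genes whose groups do not overlap. The turned values after median centring were Gmnn 0.024, Cdc7 0.040, Gins2 0.061, Gins3 0.0034, Pold2 0.057, Tk1 0.018 and Uhrf1 0.055. After cyclic loess they were Orc6 -0.024, Mcm2 -0.010, Mcm3 -0.038, Mcm4 -0.010, Mcm6 -0.024, Gins4 -0.042, Pole -0.0043, Rfc2 -0.034, Rfc3 -0.020, Lig1 -0.039 and Chaf1b -0.056. After repeated quantile normalization they were Orc6 -0.012, Mcm2 -0.0069, Mcm3 -0.023, Mcm4 -0.0025, Mcm6 -0.016, Gins4 -0.035, Mcm10 -0.016, Pole -0.012, Rfc2 -0.042, Rfc3 -0.042, Lig1 -0.050 and Chaf1b -0.056. With the trend removed they were Orc6 -0.026, Mcm2 -0.0085, Mcm3 -0.033, Mcm4 -0.0094, Mcm6 -0.022, Gins4 -0.039, Mcm10 -0.011, Pole -0.017, Rfc2 -0.047, Rfc3 -0.030, Lig1 -0.052 and Chaf1b -0.062. Pole lay at -0.088 with the gene mean and -0.23 with the lowest probe set, and Rpa3 at -0.10 with the latter. With an array left out, the values ranged from -0.10 to 0.020 for Gmnn, -0.079 to 0.028 for Cdc7, -0.14 to 0.018 for Gins3, -0.084 to 0.069 for Pold2, -0.018 to 0.086 for Orc6, -0.00070 to 0.021 for Mcm3, -0.086 to 0.078 for Gins2, -0.071 to 0.087 for Gins4, -0.058 to 0.090 for Rfc3, -0.023 to 0.070 for Lig1, -0.12 to 0.022 for Tk1, -0.084 to 0.064 for Uhrf1, -0.012 to 0.027 for Chaf1b, -0.085 to 0.37 for Orc1 and -0.0040 to 0.095 for Mcm4. The cause of these turns was not tested.

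Replicate numbers are shared by the groups but nothing says that they pair cultures, and the deviations of same-numbered arrays from their group means correlated at r = -0.0089. With the replicate number as a block, 1 replication gene (Tyms) was higher at an unadjusted p under 0.05, 0 of the other replication genes were (6.02% of all probe sets), and 0 probe sets passed the adjusted threshold. A fit with 1 array in a group assumes that it varies like the other group.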
